A study of Homo sapiens with 12 samples.

Results

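The 88 elements described here carry the Pumilio response element with its base order turned around. The Pumilio consensus is TGTANATA in DNA letters, where N is any base. A member was an 8-base element that matched this consensus with at most 1 mismatch at the 7 fixed positions when it was read backwards without complementing, and that had 3 or more mismatches when read forwards. The rule looked at sequence alone and used no editing value. It took 88 of the 1006 entries listed in all 12 libraries, namely the 4 exact reversed elements and 84 single variants of them. Of the members, 48 mismatched the forward consensus at 7 positions, 34 at 6 and 6 at 5. Nothing in the sources used here says what these elements were designed for, and they are read here as scrambled controls.

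The libraries came from RBPscan, an assay in which, inside living cells, an RNA-binding protein carries a deaminase to a recorder RNA. The edits left on that RNA report where the protein sat. All libraries were from HEK293T, a human embryonic kidney cell line labelled wild type, and all carried the same pool of recorder mRNAs, each holding 1 element and, next to it, the hairpin in which edits are recorded, in its 3′ UTR. There were 4 groups of 3 biological replicates. In the first 3, the fusion hsPUM2-ADARcdMUT was not induced, or was at 25 ng, or was at 250 ng. The fourth group had ADARcdMUT alone at 1000 ng. The series states that doxycycline switched the fusion on. The amounts come from the sample titles, which name neither a substance nor a volume, so an amount of fusion and an amount of ADARcdMUT alone may not be on 1 scale. The extraction text of the labels names zebrafish embryos, while the cell line, source and series design give HEK293T. No cellular genes were measured, so the cell line could not be checked against markers.

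PUM2 belongs to the Pumilio family of translational repressors, which hold target mRNAs through repeated modules stacked along the RNA. Each module contacts a single base, and the protein lies on the RNA in a fixed direction, so a site has a defined order from 5′ to 3′ and not only a base composition. ADAR enzymes convert adenosine to inosine, which sequencing reads as G, and ADARcd is the catalytic part without its own RNA-binding domains.

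Each reversed element has a forward twin, the same bases in the opposite order, and all 88 twins were among the 4 consensus elements and their 84 single variants. The 4 exact reversed elements are shown above their twins because they hold every base of the consensus and differ only in direction. Sequences are given 5′ to 3′, and position 4 is the free base.

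reversed, free base A: ataaatgt
twin of ataaatgt: tgtaaata
reversed, free base C: atacatgt
twin of atacatgt: tgtacata
reversed, free base G: atagatgt
twin of atagatgt: tgtagata
reversed, free base T: atatatgt
twin of atatatgt: tgtatata

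The next 8 elements are single variants that recur in the results below. They are named for a low change relative to the library, for a high level with the fusion, for holding TGTA, or for standing above the twin. A capital marks the base that departs from the reversed consensus. In the names of substitutions, the count starts with 1 at the first base on the 5′ side, and the base of the reversed consensus comes first.

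A3T on free base G: atTgatgt
A5G on free base T: atatGtgt
A5G on free base C: atacGtgt
A5C on free base G: atagCtgt
T6C on free base G: atagaCgt
T8C on free base G: atagatgC
G7A on free base T: atatatAt
A3G on free base T: atGtatgt

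Most reversed elements still contained TGT, the first 3 letters of the consensus, because reading atatatgt in its own direction ends in tgt. On the RNA strand TGT was present in 52 of the 88 members (59.1%), as in 52 of their twins, and in 353 of all 1005 8-base elements (35.1%). The longer core TGTA was present in 1 member, atGtatgt (1.14%), against 41 of the 88 twins (46.6%) and 185 of 1005 elements (18.4%).

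Sequencing depth was 11235321 to 25127959 reads per library. The members took 6.35% to 6.73% of these reads, with 2506 to 34523 reads for a member in a library and 233 to 17877 edits. The 25 ng library of replicate 2 stood furthest from the others of its group in reads per element (chi-squared per degree of freedom 202 against replicate 1 and 107 against replicate 3). It was not the only one apart. At 250 ng replicate 3 stood at 50.7 from replicate 1 and 102 from replicate 2, and ADARcdMUT replicates 1 and 3 gave 81.0. An editing level is the edits of an element over 7 times its reads, in percent, since each read covers 7 adenosines of the recorder. Means are over 3 libraries with their SD, and the n is not repeated.

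Editing on the reversed elements rose in step with the rest of the library. Their median level was 1.78%, 2.01% and 1.87% in the 3 non-induced libraries, 4.32%, 4.49% and 4.22% at 25 ng, and 7.77%, 7.75% and 7.96% at 250 ng. With ADARcdMUT alone it was 2.10%, 2.08% and 1.85%. The fusion groups did not overlap with one another, whereas the ADARcdMUT libraries overlapped with the non-induced ones. The mean of the medians was 1.89% ± 0.114, 4.34% ± 0.138, 7.83% ± 0.117 and 2.01% ± 0.141 in that order.

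The other 917 8-base elements stood at 1.82% ± 0.101, 4.35% ± 0.197, 7.88% ± 0.1004 and 1.94% ± 0.119. They were the 88 forward twins, 756 double variants of the forward consensus and 73 other elements. Most of the 917 are thus close to the consensus, and they are not a set of unrelated sequences. EMPTY, an entry of the tables with its content not given in the sources used here, stood at 2.01% ± 0.111, 4.29% ± 0.156, 7.63% ± 0.0689 and 2.12% ± 0.109. In every group the median of the reversed elements lay within 1 replicate SD of that of the 917. Both sets were read in the same libraries, so this SD includes shifts common to both and does not measure the difference within a library. Without induction 35.2% of members were above the library median in all 3 libraries and 6.82% below, against 19.96% and 21.8% of the 917. The members' median rise at 250 ng was 5.93 percentage points (4.12-fold), against 6.04 points (4.36-fold) for the 917 and 7.24 points (5.12-fold) for the forward twins. At 25 ng the rise was 2.46 points, against 2.50 points and 3.10 points.

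On the log2 odds of editing, each of the 88 members was higher at 250 ng than without induction by limma with Benjamini-Hochberg adjustment at 0.05, as were 100% of all 1006 entries. The same held, for 88 members and 100% of entries, at 25 ng against no induction, at 250 ng and at 25 ng against ADARcdMUT, and at 250 ng against 25 ng. The members' median change was 2.13 at 250 ng and 1.24 at 25 ng against no induction, beside 2.21 and 1.29 for all entries. From 25 ng to 250 ng it was 0.90 beside 0.92. Since everything moved, these calls say nothing particular about reversed elements.

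The 4 exact elements lay within the range of their variants. At 250 ng ataaatgt had levels of 7.42%, 7.67% and 7.82%, and atacatgt had 7.31%, 7.58% and 7.88%. For atagatgt they were 7.74%, 8.25% and 8.34%, and for atatatgt 7.94%, 8.004% and 7.98%. The ranges of ataaatgt and atacatgt each lay below that of atatatgt, and the other pairs overlapped. Among the 88 members at 250 ng, counted from the highest, the 4 ranked 70, 76, 15 and 25.

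Without induction their levels were 1.86% ± 0.0927 for ataaatgt, 1.85% ± 0.155 for atacatgt, 2.09% ± 0.339 for atagatgt and 1.75% ± 0.252 for atatatgt. At 25 ng all 4 lay between 4.36% and 4.43%. None was called relative to the library median at 250 ng against no induction: the changes in log2 odds were -0.08 (SE 0.07, adjusted p = 0.579), -0.08 (0.07, 0.564), -0.14 (0.09, 0.384) and 0.09 (0.07, 0.528), all from limma with Benjamini-Hochberg adjustment over 1006 entries.

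Turning the same bases round to the forward order gave more editing where the fusion was induced. At 250 ng the twin tgtaaata reached 13.2% ± 0.328, tgtacata 13.4% ± 0.379, tgtagata 11.5% ± 0.195 and tgtatata 13.9% ± 0.360. The difference in log2 odds between twin and reversed element was 0.88 ± 0.0030 with free base A, 0.92 ± 0.06 with C, 0.56 ± 0.09 with G and 0.90 ± 0.05 with T, and the twin was above in 3 of 3 libraries in each of the 4 pairs. The median over these pairs was 0.88 ± 0.02 at 250 ng (5.68 ± 0.178 percentage points) and 0.76 ± 0.07 at 25 ng (2.85 ± 0.430 points). Without induction it was -0.06 ± 0.09 and no pair kept 1 sign over the 3 libraries. With ADARcdMUT alone it was -0.18 ± 0.10, and the twin was below in all 3 libraries in 3 of the 4 pairs.

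Over all 88 pairs the sign of the difference turned with induction. The median of twin minus reversed element was -0.08, -0.08 and -0.08 in the 3 non-induced libraries and -0.07, -0.10 and -0.05 with ADARcdMUT alone. It was 0.17, 0.24 and 0.15 at 25 ng, and 0.21, 0.23 and 0.23 at 250 ng. The means were -0.08 ± 0.0011, -0.08 ± 0.02, 0.19 ± 0.05 and 0.22 ± 0.01. In the 2 groups with little editing the reversed order was thus the slightly higher one, by 0.0944 points without induction and 0.103 points with ADARcdMUT, while at 250 ng the forward order led by 1.22 ± 0.0814 points. No test is attached to these medians, because the members were chosen with earlier results of these data known.

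Counted pair by pair, the twin was above in all 3 libraries in 70 of 88 pairs at 250 ng and in 60 at 25 ng, and below in 6 and 7. Without induction it was above in 2 and below in 33, and with ADARcdMUT alone above in 7 and below in 29. On the share of reads with at least 1 edit, the median difference at 250 ng was smaller, 0.12, and at 25 ng it was 0.11. The other component was the number of edits in an edited read, which at 250 ng was 2.46 ± 0.0212 for the reversed elements and 2.65 ± 0.0229 for the twins, against 1.84 ± 0.0938 and 1.83 ± 0.0787 without induction.

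How far a pair was separated at 250 ng depended on where the substitution lay. The consensus positions are named here by their place in the reversed element, so that reversed position 1 is the last consensus base and reversed position 8 the first. The median difference was 0.45 for substitutions at position 1, 0.26 at position 2, 0.32 at position 3 and 0.29 at position 5. It was 0.05 at position 6, 0.13 at position 7 and 0.10 at position 8, which correspond to the TGT of the forward element. At position 1 the twin was above in all 3 libraries in 12 of 12 pairs. Apart from the 3 exact pairs above 0.8, the widest were Ttacatgt and Ttatatgt, both A1T, at 0.64 ± 0.02 and 0.64 ± 0.07. Their own levels at 250 ng were 7.70% ± 0.165 and 7.90% ± 0.195, and those of their twins tgtacatT and tgtatatT 11.5% ± 0.0835 and 11.8% ± 0.481.

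Pairs with G as the free base were the least separated. At 250 ng their median difference was 0.05 ± 0.01, with the twin above in all 3 libraries in 11 of 22 pairs and below in 6. For free base A it was 0.26 ± 0.04 (17 above and 0 below of 22), for C 0.31 ± 0.01 (22 and 0) and for T 0.34 ± 0.04 (20 and 0). All 6 pairs in which the reversed element was the higher one had free base G.

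The widest of these 6 was atagatgC, with 8.03%, 7.88% and 8.55% against 7.35% ± 0.255 for its twin Cgtagata, a difference of -0.16 ± 0.04 in log2 odds. The others were atagaCgt (-0.12 ± 0.01), atagatgG (-0.10 ± 0.04), atagaAgt (-0.06 ± 0.05), atagGtgt (-0.06 ± 0.04) and atagTtgt (-0.06 ± 0.03), the last named after its values were seen. Each of the 6 was higher than its twin without induction too, by 0.33 ± 0.15, 0.33 ± 0.16, 0.23 ± 0.02, 0.18 ± 0.06, 0.09 ± 0.04 and 0.24 ± 0.19 in the same order.

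A single substitution had a fixed direction in the forward consensus and none in the reversed one. Each of the 84 single variants was set against the exact element with the same free base, within each library. At 250 ng all 84 forward variants were below their consensus element in 3 of 3 libraries, with a median of -0.58 in log2 odds. Of the 84 reversed variants 16 were below and 22 above in 3 of 3 libraries, and the rest had mixed signs, with a median of 0.01 and a range from -0.16 to 0.15. At 25 ng the forward variants were again all 84 below (median -0.55), and the reversed variants were 15 below and 12 above. Variants with the same free base share 1 exact element, so they are not independent.

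By position, the reversed medians at 250 ng ran from -0.01 at position 1 to 0.03 at position 5, and at all 7 positions they were within 0.03 of 0. The forward medians at the matching positions ran from -0.42 to -0.80, the lowest where reversed position 6, the second T of TGT read from its 5′ end, was changed. Without induction neither order showed such a fall: 9 reversed variants were below and 12 above in 3 of 3 libraries, and 14 and 7 forward ones. With ADARcdMUT alone the counts were 14 and 12 for reversed and 4 and 28 for forward variants.

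The members also differed much less among themselves than the twins did. At 250 ng their mean levels ran from 7.24% to 8.79% with an SD between elements of 0.315 points, against 1.33 points between the twins. Without induction the order was the other way, with an SD of 0.172 points between reversed elements and 0.108 between twins. The median replicate SD of a member was 0.149 points without induction, 0.201 at 25 ng, 0.177 at 250 ng and 0.201 with ADARcdMUT. Neighbours in a ranking of members are therefore not to be read as ordered.

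Within the set the medians with and without TGT differed by less than the replicate SD, which includes shifts common to both in a library. At 250 ng the 52 members with TGT had a median of 7.81% ± 0.121 and the 36 without it 7.84% ± 0.129, and without induction 1.89% ± 0.113 and 1.89% ± 0.123. The only member with TGTA, atGtatgt, had 8.73%, 8.36% and 8.47% at 250 ng, which ranked 4 of 88, and 4.67%, 5.25% and 4.30% at 25 ng, which ranked 5. It was above the members' median in all 6 of these libraries. Relative to the library median its change was 0.15 at 250 ng (SE 0.07, adjusted p = 0.207) and 0.16 at 25 ng (0.07, 0.234) against no induction by limma, short of a call. It ranked 11 with ADARcdMUT alone, at 2.64%, 2.24% and 1.90%, and 66 without induction, at 1.79% ± 0.0609.

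To see which members rose less or more than the library as a whole, each library was centred on its median log2 odds before the fit, and calls of limma at an adjusted p under 0.05 were counted. Against no induction at 250 ng, 7 of 88 members were lower and 0 higher, where 3.38% of all 1006 entries were lower and 9.64% higher. The members' median was -0.08 and that of all entries 0.01. Of the 88 twins 50 were higher and 1 lower, with a median of 0.27.

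The lowest change of all 1006 entries belonged to atTgatgt. Its levels were 2.23%, 2.73% and 2.29% without induction and 7.80%, 7.79% and 7.98% at 250 ng. It was the highest of the 88 members without induction and ranked 36 at 250 ng. Its change relative to the library median was -0.42 (SE 0.07, limma adjusted p = 0.000547), and it was called in all 7 other settings and with each of the 12 libraries left out (adjusted p from 5.77e-05 to 0.00629). Its rise was 5.44 percentage points against 5.93 for the median member.

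Next lowest among the members were a pair with A5G. The element atacGtgt had 2.27%, 2.35% and 2.26% without induction and 7.89%, 8.11% and 7.74% at 250 ng, a change of -0.33 (SE 0.09, adjusted p = 0.0293). The element atatGtgt had 2.29%, 2.004% and 2.34% and then 7.68%, 7.82% and 7.77%, a change of -0.30 (SE 0.09, adjusted p = 0.0342). Both stood among the 6 highest members without induction and at ranks 28 and 54 at 250 ng. Each was called in all 7 other settings but with only 6 and 4 of the 12 libraries left out.

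The remaining 4 had G as the free base. They were atagCtgt (-0.30, adjusted p = 0.0465), atagaCgt (-0.22, 0.0333), atagatgA (-0.22, 0.0116) and atagatCt (-0.18, 0.0415). The first had 2.43%, 2.40% and 2.42% without induction, the tightest of all members, and 8.45%, 8.52% and 8.57% at 250 ng. Its rise of 6.10 points, like the 6.20 points of atagaCgt, was above that of the median member, so these elements were low in log2 odds and not in points. By contrast atagatgA rose by 5.57 points and atagatCt by 5.39 points, below the median member on both scales. EMPTY had a change of -0.19 (SE 0.05, adjusted p = 0.0140), within the range of these 7.

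The fifth lowest member, atacatgC, missed the call at -0.27 (SE 0.09, adjusted p = 0.0506). It ranked 10 without induction, at 2.13%, 2.29% and 2.12%, and 39 at 250 ng, at 7.80%, 7.69% and 7.99%. The 7 lower calls were few and moved with single libraries. Without replicate 1 or 2 of the non-induced group there were 3 and 4, without any 1 of the 25 ng libraries 3 each, and without replicates 1, 2 and 3 at 250 ng 2, 1 and 1. Without replicate 1 or 2 of ADARcdMUT there were 13 and 12. Without replicate 3 of the non-induced group 2 members were higher, and without replicate 1 of ADARcdMUT 1 was. Over these leave-outs the lower calls among all 1006 entries ran from 12 to 54.

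At the other end no member was called higher at 250 ng against no induction. The 5 largest changes were those of ataaatTt (0.23, SE 0.14, adjusted p = 0.373), atatatAt (0.17, 0.07, 0.107), atGtatgt, atatatTt (0.10, 0.11, 0.632) and atatatgC (0.09, 0.09, 0.609). The first had the lowest non-induced level of all members and the widest spread, with 1.08%, 1.71% and 2.04%, on the fewest reads (2506 to 5486). Its levels at 250 ng were 8.09%, 7.84% and 7.65%, rank 35.

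The highest editing of any member at 250 ng was that of atatatAt, with 8.57%, 8.70% and 9.10%, and it was also the highest at 25 ng, with 4.88%, 5.04% and 4.68%. Its non-induced levels of 1.58%, 2.06% and 1.84% ranked 54 of 88. It is 1 of the 4 members made of A and T alone, with ataaatAt, atatatTt and ataaatTt, and all 4 arise by losing the G at position 7. Their median was 8.49% ± 0.0946 at 250 ng but 1.82% ± 0.129 with ADARcdMUT alone, below the 2.01% of all members in that group. Outside the reversed set 33 elements made of A and T alone had 8.30% ± 0.168 at 250 ng and 1.94% ± 0.109 with ADARcdMUT, so the high level at 250 ng was shared with them. The 33 are not unrelated to the consensus. They include the forward twins of these 4 members, such as tAtaaata and tTtatata, which are single variants of it. The 4 members themselves had few reads, and across the 88 members reads and level at 250 ng were correlated at r = -0.38 (Spearman -0.37), over elements that share the same libraries.

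At 25 ng against no induction 4 members were lower and 0 higher relative to the library median, where 2.19% of all entries were lower and 7.06% higher. The members' median was -0.06 against -0.0030 for all entries. The lowest of all 1006 was again atTgatgt, which went from the non-induced levels above to 4.59%, 4.65% and 4.36% (-0.35, SE 0.07, limma adjusted p = 0.00325). The others were atagaCgt (-0.22, adjusted p = 0.0465), atGgatgt (A3G on free base G, -0.18, 0.0476) and atagatgA (-0.18, 0.0452). These comparisons share the non-induced libraries with those at 250 ng, so the recurrence of names is not independent.

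Of these 4, atTgatgt was called with every library left out. Each of atagaCgt, atGgatgt and atagatgA was called in 3 of the 12 fits with 1 library left out. The count was 1 without replicate 1 of the non-induced group and 2 without replicate 2 or 3, where 1 member was higher without replicate 3. It was 1 without any single library of the 25 ng or the 250 ng group, and 8 without replicate 1 or 2 of ADARcdMUT. Among all entries the lower calls ran from 3 to 37.

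Measured against ADARcdMUT alone, the same fit called members in both directions. At 250 ng 10 were lower and 2 higher, where 4.37% of all entries were lower and 10.3% higher, with a median of -0.07 for the members. At 25 ng 6 were lower and 1 higher, where 2.49% were lower and 7.55% higher, with a median of -0.05. The twins gave 46 higher and 1 lower at 250 ng, and 35 and 1 at 25 ng.

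Both comparisons share the ADARcdMUT libraries, so the recurrence of names between them is not independent. The lowest of all 1006 entries in both comparisons was atatGtgt. With ADARcdMUT alone it had 3.24%, 2.67% and 2.32%, the highest mean of any member at 2.74% ± 0.465, with replicate 1 the highest. Its changes were -0.52 at 250 ng (SE 0.09, limma adjusted p = 0.000752) and -0.40 at 25 ng (SE 0.09, 0.00720), and both calls held with each of the 12 libraries left out. The second lowest in both was atTgatgt, which had 2.84%, 2.32% and 2.52% with ADARcdMUT, at -0.41 and -0.34 (adjusted p = 0.000582 and 0.00377).

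Also lower at both amounts were atCaatgt (A3C on free base A, -0.30 and -0.33, adjusted p = 0.0104 and 0.00620), aCaaatgt (T2C on free base A, -0.29 and -0.22, 0.00156 and 0.0148) and atacaCgt (T6C on free base C, -0.28 and -0.27, 0.0258 and 0.0405). Of these, atCaatgt had 2.43%, 2.44% and 2.01% with ADARcdMUT against 1.55%, 2.07% and 1.73% without induction, so its groups overlapped. At 250 ng alone the list held atacGtgt (-0.31, 0.0353), atagCtgt (-0.29, 0.0464), atagatgA (-0.21, 0.0183), atagaCgt (-0.21, 0.0451) and atagatCt (-0.19, 0.0335), and at 25 ng alone atGgatgt (-0.19, 0.0405).

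Higher than the library against ADARcdMUT were Ctatatgt (A1C on free base T), at 0.26 for 250 ng and 0.24 for 25 ng (limma adjusted p = 0.0125 and 0.0230), and ataaatAt (G7A on free base A), at 0.22 for 250 ng (0.0335). The first had the lowest level of any member with ADARcdMUT, 1.76%, 1.66% and 1.51%, and 7.94%, 7.68% and 8.15% at 250 ng, rank 27. The second had 1.81%, 1.86% and 1.69% with ADARcdMUT and 8.35%, 8.49% and 8.26% at 250 ng, rank 8. With 1 library left out, Ctatatgt was called in 10 of 12 fits at each amount and ataaatAt in 8. Over all alternatives the limma adjusted p reached 0.309 and 0.524 for Ctatatgt at 250 ng and 25 ng. For ataaatAt it reached 0.287.

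These counts moved with the library left out. At 250 ng the lower calls were 5, 4 and 3 without replicates 1, 2 and 3 of that group, with 0, 1 and 0 higher, and the higher calls were 3 without replicate 1 of the non-induced group. They were 3 too without replicate 2 or 3 of ADARcdMUT. At 25 ng the lower calls were 3 without replicate 3 of that group, 4 without replicates 1 or 2 of it or without any 1 of the 250 ng libraries, and 11 without replicate 1 of ADARcdMUT. There the higher calls were 0 without replicate 1 or 3 of 25 ng, and 2 and 3 without replicates 1 and 2 of ADARcdMUT. Among all entries the lower calls ran from 12 to 57 at 250 ng and from 9 to 43 at 25 ng.

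Between the 2 induced amounts no member departed from the library: 0 of 88 were higher and 0 lower at 250 ng against 25 ng by limma, as were 0% of all entries either way. No member had an unadjusted p under 0.05, and on the arcsine square root scale or with only these groups in the fit 5 did. Without the share of all entries beside it, this 5 is not read as a result about the members.

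ADARcdMUT without PUM2 left the reversed elements near their non-induced levels. In log2 odds 0 members were called higher and 0 lower by limma, where 0.199% of all entries were higher and 0% lower, and the members' median change was 0.09, as for all entries. An unadjusted p under 0.05 was reached by 11 members. In 7 members all 3 ADARcdMUT libraries lay above all 3 non-induced ones and in 0 below, where 10.6% and 0.298% of all entries did. Centred on the library median, 0 were higher and 0 lower (0.199% and 0% of entries), with 12 at an unadjusted p under 0.05. The 11 and 12 have no share of all entries beside them and are not read as a result about the members.

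Both zero counts depended on replicate 3 of ADARcdMUT, without which 10 members were higher in log2 odds, of 117 of all 1006 entries, and 3 relative to the library, of 11. Without replicate 2 of the non-induced group 1 member was higher on each scale, of 5 and 4 entries, and without replicate 2 of ADARcdMUT 1 was lower on the centred scale, the only such entry.

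In the 2 groups with little editing, the reversed elements were above the library median in all 3 libraries more often than the other elements. Without induction 31 of 88 (35.2%) were above the library median in all 3 libraries and 6 (6.82%) below, against 19.96% and 21.8% of the other 917 elements. With ADARcdMUT alone the shares were 30.7% above and 12.5% below, against 17.3% and 18.2%. At 250 ng the shares were 23.9% above and 33.0% below, against 35.3% and 33.5%.

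Members with G as the free base had the highest median without induction and with ADARcdMUT alone. The margin over the next base was near or under the replicate SD. Their median was 2.02% ± 0.103 without induction, against 1.89% ± 0.109 for A, 1.83% ± 0.0926 for C and 1.85% ± 0.104 for T, and with ADARcdMUT it was 2.11% ± 0.164 against 1.99% ± 0.183, 1.98% ± 0.123 and 1.96% ± 0.108. They held 6 of the 10 highest members in each of these groups and at 25 ng, and 5 of 10 at 250 ng. At 250 ng their median was 7.92% ± 0.145 and that of free base T 7.95% ± 0.0985, a gap within the SD, so neither led.

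The 3 highest non-induced members, atTgatgt, atagCtgt and atagaCgt, all had free base G, and they were also at ranks 3, 2 and 4 with ADARcdMUT. Their mean non-induced levels were 2.42% ± 0.273, 2.42% ± 0.0128 and 2.30% ± 0.144. The 3 lowest were ataaatTt at 1.61% ± 0.488, atacatCt at 1.65% ± 0.149 and Ttagatgt at 1.66% ± 0.211. Of the 10 highest members without induction 7 were among the 10 highest with ADARcdMUT, and of the 10 lowest 4. Across the 88 members the mean levels of these 2 groups were correlated at r = 0.68 (Spearman 0.58), against r = 0.53 over the 917 others and 0.30 over the 88 twins. The elements share libraries, reads and bases, so these correlations only describe the set. Between 25 ng and 250 ng the order was kept less by the members (r = 0.65) than by the twins (r = 0.97), whose levels also span a wider range.

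By position of the substitution, the non-induced medians ran from 1.78% at position 1 to 2.01% at position 5, and those with ADARcdMUT from 1.89% at position 7 to 2.11% at position 5. The 12 members changed at position 5, in the base just before the tgt end, had a median of 2.01% ± 0.0926 without induction and 2.11% ± 0.125 with ADARcdMUT. The 12 changed at position 1 had 1.78% ± 0.110 and 1.93% ± 0.170. Against the exact element with the same free base, 3 of the 12 at position 5 were above in all 3 non-induced libraries, as were 3 each at positions 3 and 8. At 250 ng the first stood at 7.87% ± 0.0483 and the second at 7.71% ± 0.0900. Changing position 5 to G makes the word GTGT, a word picked after the values were seen. The 4 members with it had 2.17% ± 0.0696 without induction and 2.29% ± 0.203 with ADARcdMUT, and 14 elements with GTGT outside the reversed set had 1.90% ± 0.108 and 1.97% ± 0.129.

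Elements just outside the rule had similar levels. The 6 elements that matched the reversed consensus with 2 mismatches had medians of 1.75% ± 0.0474 without induction, 4.46% ± 0.297 at 25 ng, 7.995% ± 0.0480 at 250 ng and 1.98% ± 0.2497 with ADARcdMUT. The 4 exact elements, at the inner end of the rule, had 1.85% ± 0.117, 4.40% ± 0.212, 7.78% ± 0.182 and 2.004% ± 0.101.

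The share of reads with at least 1 edit told the same about the members as the editing level. It was 7.16% ± 0.0860 without induction, 13.9% ± 0.166 at 25 ng, 22.3% ± 0.319 at 250 ng and 7.39% ± 0.475 with ADARcdMUT, against 22.3% ± 0.409 for the 917 others at 250 ng and 23.7% ± 0.419 for the twins. Edited reads carried 1.84 ± 0.0938, 2.18 ± 0.0848, 2.46 ± 0.0212 and 1.90 ± 0.0533 edits each in the same order of groups.

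The abundance of the elements, measured as reads per element, was not called changed for any member. By edgeR's quasi-likelihood test 0 of 88 were higher and 0 lower at 250 ng, at 25 ng and with ADARcdMUT against no induction, as were 0% of all 1006 entries. An unadjusted p under 0.05 was reached by 39, 0 and 13 members, and by 430, 1 and 255 of the 1006 entries. At 250 ng this was 19 members (152 entries) without replicate 3 of 250 ng and 21 (216) without replicate 2 of the non-induced group. At 250 ng the members' log2 changes ran from -0.34 (atagatgA, SE 0.09, adjusted p = 0.0766) to 0.31 (Ttatatgt, SE 0.10, 0.0766).

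DESeq2 called 18 members higher and 16 lower at 250 ng, where 16.3% and 14.6% of all entries were called. At 25 ng it called 0 and 0 (0% of entries), and with ADARcdMUT 3 and 2, where 7.75% and 1.59% of entries were called. Without replicate 2 of 25 ng, 1 of the libraries that stood apart, edgeR called 20 members higher and 22 lower at 250 ng (226 and 210 of all entries) and 7 and 3 with ADARcdMUT (97 and 55). Without replicate 1 of 25 ng the counts were 9 and 11 at 250 ng (105 and 109 of all entries), and without replicate 3 of ADARcdMUT 4 and 0 with ADARcdMUT (128 and 15). Reads come from amplicons of a pooled library, so recorder RNA per cell and the number of cells that carried an element cannot be told apart.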

How the data were processed

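Per the labels' protocols, PCR amplicons of the recorder 3′ UTR were sequenced. Per the file headers, each deposited table lists per element counts of reads, of reads with an edit, of edits and of all reads, and beside them an efficiency score, a percent edited and the element's percent of the library. The percent edited recomputed by the same formula, edits over 7 times the reads, matched within 1e-09. Tools for alignment, edit calling and filtering were not given in the sources used here. Listed elements have at least 1015 reads, and 16 of 1022 elements not listed in all 12 libraries were left out. Reads may be PCR copies, so no counting interval is given and replicate spread is used. P-values measure only the spread between these 12 libraries, which the series calls biological replicates.

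Each element was tested on log2((edits + 0.5)/(7 × reads - edits + 0.5)), as it stood and centred on the library median, with limma 3.58.1 in R 4.3.3 (lmFit, eBayes with trend) fitting the 12 libraries together, for 6 comparisons. P-values were adjusted by Benjamini-Hochberg over 1006 entries, with calls at an adjusted p under 0.05. Read counts were tested with edgeR 4.0.16 (TMM), and with DESeq2 1.42.0 as an alternative. Python 3.11.15 with numpy 2.4.6 and pandas 2.3.3 served for all medians, pairs and counts. Both models were tested on simulated data.

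The members, lists and the rule for named elements were chosen with earlier results of these data known. Named were the exact elements and their twins, the member with TGTA, EMPTY, every member called in the centred fit, the 5 highest and 5 lowest changes at 250 ng against no induction, the 3 highest and 3 lowest non-induced levels, and the 5 widest and 5 narrowest twin pairs at 250 ng. Alternatives were a pseudocount of 1, the replicate number as a block, an arcsine square root scale, a minimum of 5000 reads, the share of reads edited, fits with only the 2 groups compared, centring on elements without TGT, pooled edits, and leaving out each library in turn.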

Additional observations from a re-analysis of the deposited data

How the results depend on the processing

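The rise of all 88 reversed elements with the fusion (79 of 79 with 5000 reads or more in every library), their median levels, and the direction of the twin difference were kept under every alternative tried, and no direction reversed. What moved were small counts of calls, the calls of single members, and the size of the twin difference, which is given below. Relative to the library, lower calls at 250 ng against no induction were 16, of 67 entries, with only the 2 groups in the fit (7, of 34, in the report), and higher calls 2 on the arcsine scale. At 25 ng they were 7 with only 2 groups and 1 on the arcsine scale (with 1 higher), by the share of reads edited, or centred on elements without TGT. Against ADARcdMUT at 250 ng lower calls were 5 with only 2 groups, and higher calls 4 on the arcsine scale and 1 by the share of reads edited or at 5000 reads or more. At 25 ng they were 3 and 0 with only 2 groups. With 1 library left out, lower and higher calls ran from 1 to 13 and 0 to 2 at 250 ng and 1 to 8 and 0 to 1 at 25 ng against no induction, and from 3 to 13 and 0 to 3, and 3 to 11 and 0 to 3, against ADARcdMUT. For ADARcdMUT against no induction they ran from 0 to 1 and 0 to 3, and higher calls without centring from 0 to 10. Counts given here without the share of all entries are not read as a result about the members. Leaving out a library in neither of the groups compared kept each estimated change and moved only the spread shared by the fit. Otherwise the cause of these moves was not tested.

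For reads per element, DESeq2 gave 18 higher and 16 lower members at 250 ng (164 and 147 of all 1006 entries) and 3 and 2 with ADARcdMUT (78 and 16). With 1 library left out, edgeR gave 0 to 20 higher and 0 to 22 lower at 250 ng, and 0 to 7 and 0 to 3 with ADARcdMUT. The median twin difference by the share of reads edited was -0.0675 without induction, 0.11 at 25 ng and 0.12 at 250 ng, and 0.24 at 250 ng with 5000 reads or more.

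With the replicate number as a replicate block, lower calls at 25 ng against no induction were 1, and read calls at 250 ng were 9 higher and 14 lower (138 and 130 of all entries). It moved no other count by over 1.5 times. The numbers gave no sign of pairing: libraries of 1 number in different groups deviated together at r = -0.09 to 0.07, none of 18 pairs over 0.1. Depth limits the members with the fewest reads, and 3 libraries a group limit every call.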
